A study of Rattus norvegicus with 2 samples.

Results

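Fibroblasts of the rat carotid artery that carried Pi16 transcripts were described in 2 single-cell RNA libraries. These cells were chosen from the deposited UMI counts (unique molecular identifiers, each counting 1 captured transcript) by fixed limits. A cell needed at least 2000 UMIs and at most 20% of them in mitochondrial genes. The sum of Col1a1, Col3a1, Dcn and Lum, called F, had to reach 1.5% of the UMIs. The sum of 6 vascular smooth muscle cell (VSMC) genes (Acta2, Tagln, Myl9, Myh11, Cnn1 and Cald1), called V, had to stay under 0.5%. Gfpt2 had to stay under 0.35% of the UMIs, Postn under 2 UMIs, and Pi16 had to reach 2 UMIs. Of 8977 barcodes, 898 met all limits and are called Pi16-positive here, 456 in the control and 442 in the case library. Cells that met the same limits but held 0 Pi16 UMIs, called Pi16-zero, served as the comparison, with 58 cells in the control and 292 in the case library. Another 22 control and 85 case cells with 1 Pi16 UMI belonged to neither class. Values of Pi16 and of the limit genes thus describe the choice of cells and are not findings.

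The control library held normal left carotid arteries and the case library the right carotid arteries of the same male Sprague-Dawley rats, injured with a balloon catheter 28 days earlier. The labels give an age of 12 weeks and no genetic change for either group, and each library pooled the vessels of the same 2 rats. The control arteries therefore came from animals that had been operated on the other side. With 1 library per group there was no replicate check, so a difference between the libraries cannot be told apart from injury, and no test between groups was possible.

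Fibroblasts of large arteries lie mainly in the adventitia, the outer coat of the vessel, and make its collagen, proteoglycans and microfibrils. Pi16 (peptidase inhibitor 16) is a membrane-anchored glycoprotein that, together with Dpp4, Cd34 and Sema3c, is known from a fibroblast type found around vessels in many organs. That type is usually set against fibroblasts rich in basement membrane collagen, marked by Col15a1 and Col4a1.

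The control library held 24968329 UMIs in 3321 barcodes, or 5981 in the median barcode. The case library held 28232614 UMIs in 5656 barcodes, or 4778 in the median one. Median depth in the Pi16-positive cells was 11048 UMIs and 2512 genes in the control library and 5611 UMIs and 1594.5 genes in the case library. In the Pi16-zero cells it was 10550 UMIs in the control and 4457 UMIs in the case library. The case cells were thus shallower in both classes, and the Pi16-zero cells were the shallower class in both libraries. A total of 21 barcode sequences occurred in both libraries, and 6 control Pi16-positive cells and 0 case ones carried such a barcode. No shared barcode was Pi16-positive in both libraries.

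Levels are in CPM. For this unit, UMIs were added up over a class of cells within 1 library, and a gene's UMIs were scaled to a class total of 1000000. The sums held 5297336 UMIs in Pi16-positive control, 586375 in Pi16-zero control, 2647403 in Pi16-positive case and 1429579 in Pi16-zero case cells. Intervals are exact 95% intervals for counting error alone (Poisson for levels, Clopper-Pearson for shares and ratios). They do not cover differences between animals, and those of levels and ratios do not cover the spread between cells.

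The marker genes of the label were present, of which Dcn is part of the rule and only describes the choice of cells. Dcn, the collagen-binding proteoglycan decorin, stood at 15429 CPM in Pi16-positive control and 14876 CPM in Pi16-positive case cells, against 177 and 160 CPM in cells gated as VSMCs (V of at least 1.5%, F under 0.5%). Pdgfra, the PDGF receptor chain of fibroblasts, stood at 109 CPM in Pi16-positive control, 88.7 in Pi16-zero control, 130 in Pi16-positive case and 108 in Pi16-zero case cells. The levels of both classes lay within counting error of each other, and the VSMC gate held 0.473 and 1.05 CPM. Dpt, the matrix protein dermatopontin, stood at 930 CPM in Pi16-positive and 1134 CPM in Pi16-zero control cells, and at 1165 CPM in Pi16-positive and 2494 CPM in Pi16-zero case cells. Dpt thus marked the fibroblast gate as a whole, with its highest level in the Pi16-zero cells of the injured arteries. Pdgfra and Dpt, which the rule did not use, mark these cells as fibroblasts, but the position in the adventitia was not measured.

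Dpp4, usually the partner marker of Pi16, was nearly missing. It held 27 UMIs (5.10 CPM) in Pi16-positive control and 18 UMIs (6.80 CPM) in Pi16-positive case cells. The Pi16-zero control cells held 30 Dpp4 UMIs (51.2 CPM) and the Pi16-zero case cells 12 (8.39 CPM).

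Pi16 itself varied widely among the chosen cells. The median was 16 UMIs per cell in the control library, from 2 to 898, and 7 in the case library, from 2 to 157. Scaled to 1000000 UMIs per cell, the medians were 1665 and 1182. At the threshold, 19 control and 49 case cells held exactly 2 UMIs, just inside, and 22 control and 85 case cells held 1 UMI, just outside. The control cells with 2 UMIs had a median depth of 8520 UMIs and those with 1 UMI of 7347, and the case cells had 4999 and 4942. Depth at the threshold was therefore close on both sides of it in the case library.

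Pi16-positive cells made up 22.8% of the control cells that passed the UMI and mitochondrial limits (interval 21.0 to 24.7) and 9.49% of the case cells (8.66 to 10.4). These limits kept 1999 of 3321 control barcodes (60.2%) and 4659 of 5656 case barcodes (82.4%). The shares of kept cells thus rest on unequal filtering, and their gap depends on it. Of all barcodes, 456 of 3321 in the control and 442 of 5656 in the case library were Pi16-positive. Within the fibroblast gate, 85.1% of 536 control cells (81.8 to 88.0) and 54.0% of 819 case cells (50.5 to 57.4) were Pi16-positive. To compare the libraries at equal depth, every cell was thinned at random to 2000 UMIs. At least 1 Pi16 UMI then remained in 77.6% of the control gate (73.8 to 81.1) and 52.4% of the case gate (48.9 to 55.8). The share was lower in the injured arteries also at equal depth. The whole fibroblast gate made up 26.8% of the kept control cells (24.9 to 28.8). In the case library it made up 17.6% (16.5 to 18.7). Pi16-zero cells made up 2.90% of the kept control and 6.27% of the kept case cells. The gate share was thus lower and the Pi16-zero share higher in the case library. The paper, with its own clusters, reports a larger proportion of fibroblasts in the stenotic artery. The cause of this contrast was not tested. All these shares count cells captured after tissue digestion. Whether an artery held fewer Pi16-positive cells or more other cells was not tested.

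The share of cells with Pi16 was lower in the case library in neighbouring fibroblast classes too. Gfpt2-high fibroblasts, which the rule leaves out, had Pi16 in 72.5% of 120 control and 50.2% of 227 case cells at equal depth. Postn-positive fibroblasts, also left out, had Pi16 in 7 of 11 control and 27 of 128 case cells (21.1%). In cells gated as VSMCs, which should lack Pi16, the share was 0.755% of 795 control and 0.645% of 1705 case cells at equal depth. Without thinning, the VSMC shares were 6.04% and 2.05%, and the level was 4.73 and 3.54 CPM. Detection in fibroblasts stood far above this background in both libraries, as the plot of Pi16 detection by cell class shows.

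**Figure D1:**
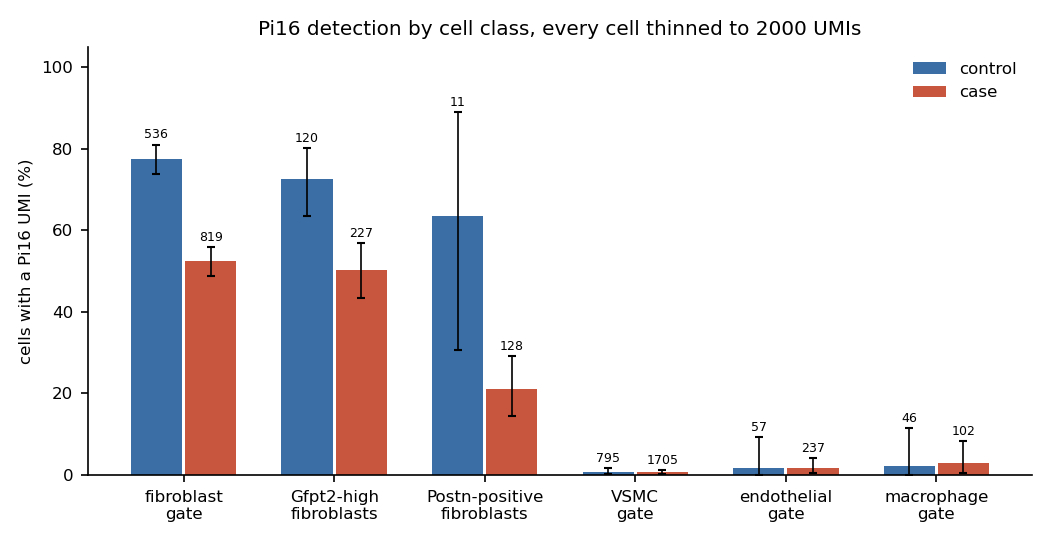
Share of cells (%) with at least 1 Pi16 UMI after thinning every cell to 2000 UMIs, in the control and case libraries; bars are shares, whiskers exact 95% binomial intervals, and the numbers above count the cells. The fibroblast gate reads 77.6% in the control and 52.4% in the case library, and the VSMC gate stays under 1% in both.

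Which genes went with Pi16 was asked by setting Pi16-positive against Pi16-zero cells of the same gate and library. A gene was measured if it averaged 100 CPM or more over both sums compared. Of 1372 genes measured in the control library, 46 (3.35%) differed by 2-fold or more, 22 higher (1.6%) and 24 lower (1.75%) in Pi16-positive cells. Without the cell that held most UMIs of each gene in each sum, the control library had 34 higher and 13 lower. In the case library 27 of 1231 genes (2.19%) were past 2-fold, 16 higher (1.3%) and 11 lower (0.894%). The classes came from the same counts, so these numbers describe them and test nothing.

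PCOLCE2 was past 2-fold higher in both libraries and Mfap5 in the control library. PCOLCE2, the procollagen C-endopeptidase enhancer 2 that speeds the trimming of procollagen, was at 294 CPM in Pi16-positive and 87.0 CPM in Pi16-zero control cells, and at 289 and 56.7 CPM in the case library. The ratio was 1.75 on the log2 scale (interval 1.35 to 2.19) in the control and 2.35 (2.02 to 2.70) in the case library. A PCOLCE2 UMI was found at equal depth in 37.9% of Pi16-positive and 10.3% of Pi16-zero control cells, and in 159 of 442 and 27 of 292 case cells. VSMCs also carried it, at 99.1 and 72.9 CPM, so PCOLCE2 was not exclusive to fibroblasts in this tissue. Mfap5, a microfibril-associated glycoprotein, was at 879 and 365 CPM in Pi16-positive and Pi16-zero control cells and at 604 and 318 CPM in case cells. Fbln1, the matrix protein fibulin-1, was at 1040 and 566 CPM in the control and 1108 and 591 CPM in the case library. Fbn1, the backbone of microfibrils, was at 903 against 674 CPM and 933 against 668 CPM. All 3 were higher in the Pi16-positive cells of both libraries, though only Mfap5 in the control library passed 2-fold (1.27, interval 1.07 to 1.47).

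Igfbp5 was past 2-fold higher in both libraries, and the secreted proteins Sfrp2 and Htra3 in the control library. Igfbp5, which binds insulin-like growth factors, was the most abundant of the named higher genes. It stood at 3661 CPM in Pi16-positive and 1351 CPM in Pi16-zero control cells and at 5939 and 1821 CPM in the case library. The ratio was 1.44 (1.34 to 1.54) and 1.71 (1.65 to 1.77) on the log2 scale. Sfrp2, a secreted Wnt modulator, was at 553 against 189 CPM in the control and 423 against 258 CPM in the case library, past 2-fold only in the control. Htra3, a secreted serine protease, followed the same course, with ratios of 1.73 (1.23 to 2.28) and 0.66 (0.35 to 0.98). Sema3c, a secreted guidance protein, was at 369 against 189 CPM and 367 against 198 CPM, just short of 2-fold in both libraries. The levels of Sema3c in the Pi16-positive cells of both libraries lay within counting error of each other (case to control -0.01, interval -0.12 to 0.10).

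Cadm3, Thbd and Smpd3 were past 2-fold higher in both libraries. Cadm3, a cell adhesion molecule, was at 210 and 78.4 CPM in Pi16-positive and Pi16-zero control cells and at 208 and 63.0 CPM in case cells. Thbd, the thrombin receptor thrombomodulin best known from endothelium, was at 345 and 140 CPM in the control and 416 and 139 CPM in the case library. Smpd3, a neutral sphingomyelinase, was at 302 and 97.2 CPM and at 276 and 83.9 CPM. Thbd was found at equal depth in 36.4% of Pi16-positive and 20.7% of Pi16-zero control cells and in 42.3% and 17.5% of case cells. The paper lists Thbd as a marker of a cluster that carried both VSMC and fibroblast markers. Its level in such cells and in the fibroblasts that the rule leaves out is not given here. The VSMC gate held at most 1.04 CPM of Cadm3 or Smpd3, but 39.5 CPM of Thbd in the control library. The 7 endothelial markers together came to 1.32 CPM in Pi16-positive and 8.53 CPM in Pi16-zero control cells, where 4 of them were at 0 in each class, and to 32.5 and 22.4 CPM in case cells. Cd55, a complement regulator, and Cd34, a sialomucin, lay under 100 CPM and were not counted. Cd55 stood at 43.6 against 13.6 CPM in the control and 54.4 against 11.9 CPM in the case library, and Cd34 at 51.5 against 29.0 CPM and 64.2 against 37.1 CPM.

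Mup4 and rows like it were also higher, but their levels are uncertain. Mup4 codes for a major urinary protein, a small lipid-carrying protein of the lipocalin family known mainly from liver. Its level was 286 CPM in Pi16-positive and 140 CPM in Pi16-zero control cells and 147 and 15.4 CPM in case cells. LOC259244, which RefSeq names Mup4l4, had log2 ratios of 1.43 (1.27 to 1.60) and 2.54 (2.35 to 2.74). AABR07048474.1 and AABR07048436.1, to which the tables used here give no function, had 1.38 and 1.10 in the control and 2.65 and 2.67 in the case library. Major urinary protein genes have near-identical copies between which reads can be split. With classes set from the thinned counts, the control ratios of these 4 rows lay between 0.01 and 0.33, all under 2-fold. The VSMC gate held at most 0.287 CPM of Mup4. LOC500712, whose function the files do not give, was at 365 against 206 CPM and 495 against 123 CPM.

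The calls of the control library depended on how its classes were set. When a cell was called by whether a Pi16 UMI remained after thinning, only 5 of the 22 higher genes stayed past 2-fold in the control library (PCOLCE2, Smpd3, Igfbp5, Sfrp2 and Thbd) and 5 of the 24 lower ones both stayed past it and still reached 100 CPM. Among the genes that did not stay, Cadm3 had 0.72 (0.49 to 0.96), Htra3 0.98 (0.71 to 1.25), Mfap5 0.89 (0.77 to 1.01) and Ifit2 0.19 (-0.06 to 0.45). In the case library 10 of the 16 higher and 9 of the 11 lower genes stayed past 2-fold at 100 CPM or more, with Cadm3 at 1.39 and Thbd at 1.17 among them, while Scara5 (0.96), Timp2 (0.80) and Cxcl1 (0.60) did not.

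Cxcl10, an interferon-induced chemokine, was higher by 2.11 (1.64 to 2.62) in the control and 1.31 (1.01 to 1.62) in the case library, but few cells carried it. In the control library 1 cell held 398 of the 1441 Cxcl10 UMIs of the Pi16-positive class, and 5 cells held 57.9% of them. At equal depth 10.5% of Pi16-positive and 5.17% of Pi16-zero control cells had a Cxcl10 UMI, against 6.54% of VSMCs. The corresponding shares in the case library were 9.28%, 7.53% and 5.10%. When the classes were set from the thinned counts, the control ratio of Cxcl10 turned to -2.24, so no direction is given for it.

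**Figure D2:**
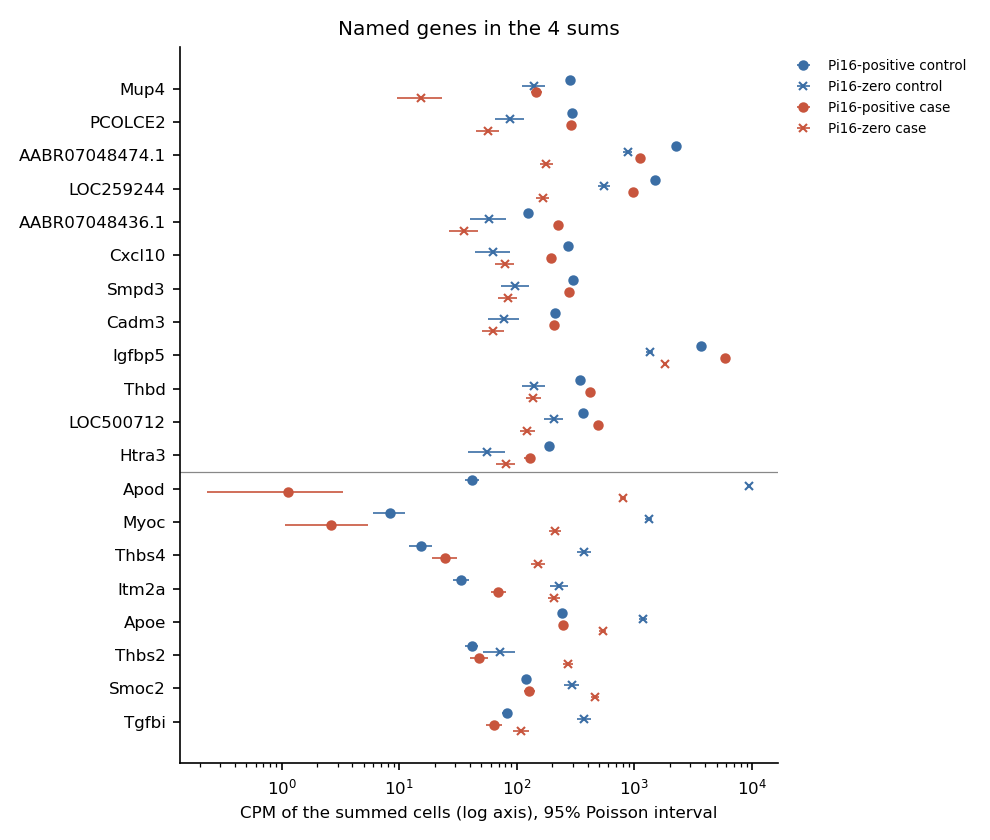
Levels (CPM, log axis) of the 12 genes named as higher and the 8 named as lower in Pi16-positive cells, in the 4 sums; circles are Pi16-positive and crosses Pi16-zero cells, blue the control and red the case library, and whiskers exact 95% Poisson intervals. Apod, at the top of the lower group, spans from 1.13 CPM in Pi16-positive case to 9456 CPM in Pi16-zero control cells. Cxcl10 is drawn among the higher genes by its main ratios, though no direction is given for it.

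Several of these genes were followed over cells grouped by Pi16. Fibroblasts of the gate were grouped into cells with 0, 1, 2 to 3, and 4 or more Pi16 UMIs, and levels were taken at 2000 UMIs per cell. The last class held 417 of the 456 control and 325 of the 442 case Pi16-positive cells. PCOLCE2, Igfbp5 and Smoc2 were named by their ratio between Pi16-positive and Pi16-zero cells. Their step from the first to the last class therefore largely repeats that ratio and is no further finding. In the case library PCOLCE2 stood at 53.1, 64.7, 141 and 352 CPM over these 4 classes. Igfbp5 stood at 1878, 2429, 4098 and 6455 CPM. Each class was above the one before, and for Igfbp5 no intervals of the 4 classes overlapped, whereas those of PCOLCE2 overlapped between 0 and 1 UMI and between 1 and 2 to 3 UMIs. Mfap5 behaved differently, at 327, 359, 368 and 740 CPM, where only the last class stood apart. Dpt ran the other way, from 2548 through 1688 and 1487 to 1060 CPM, as did Smoc2, from 406 through 200 and 188 to 118 CPM.

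In the control library the middle classes held only 22 and 39 cells and the intervals were wide. PCOLCE2 stood there at 51.7, 227, 141 and 337 CPM, and Igfbp5 at 1509, 750, 1910 and 3656 CPM. The order was thus broken at 1 UMI for both genes. Mfap5 stood at 371, 500, 603 and 1038 CPM, each class above the one before. Dpt stood at 1198, 1227, 1026 and 876 CPM, and only its first and last classes had intervals that did not overlap with each other. Smoc2 stood at 362, 22.7, 51.3 and 113 CPM, so its lowest level was at 1 UMI and not at 4 or more.

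**Figure D3:**
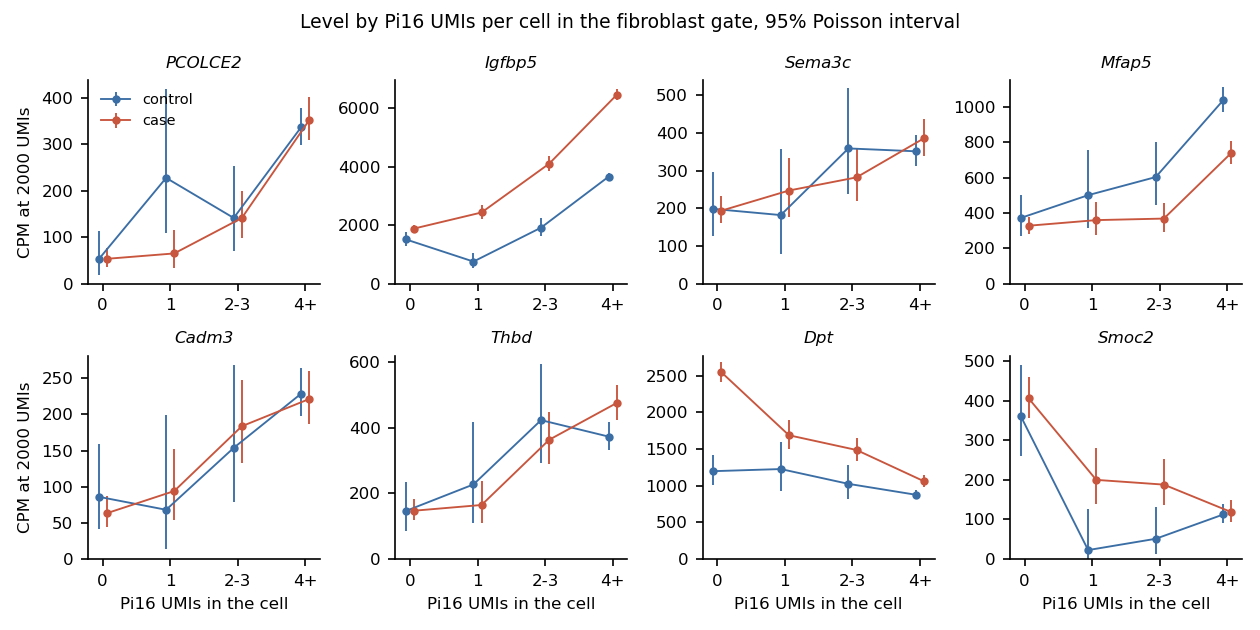
Level (CPM at 2000 UMIs per cell) of 8 genes in fibroblasts of the gate with 0, 1, 2 to 3, and 4 or more Pi16 UMIs, in the control (blue) and case (red) libraries; points are levels and whiskers exact 95% Poisson intervals. In the case library PCOLCE2 goes from 53.1 to 352 CPM and Dpt from 2548 to 1060 CPM.

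A list of 20 genes known from Pi16/Dpp4 fibroblasts was compared as a group. It was chosen with earlier results of these data known and is no independent evidence. Of its members, 11 reached a mean of 100 CPM in either library. In the control library 4 were past 2-fold higher (PCOLCE2, Smpd3, Igfbp5 and Mfap5), beside 1.6% of all genes, and 0 lower, with a median log2 ratio of 0.59 against -0.07 over all genes measured. In the case library 4 were higher (PCOLCE2, Smpd3, Igfbp5 and Scara5), beside 1.3% of all genes, and 1 lower (Dpt), with a median of 0.90 against -0.05. Scara5, a scavenger receptor that takes up ferritin, was at 159 against 106 CPM in the control and 243 against 96.5 CPM in the case library. Ackr3, an atypical chemokine receptor that clears Cxcl12, was at 824 against 582 CPM and at 707 against 378 CPM. Clec3b, the plasminogen-binding protein tetranectin, was at 313 and 319 CPM in Pi16-positive and Pi16-zero control cells, within counting error, and at 168 and 124 CPM in case cells (0.44, interval 0.19 to 0.70). Igfbp6 was also near-even, at 2133 against 1700 CPM and 2263 against 1861 CPM.

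A list of 15 genes of the Col15a1 type ran the other way. Of 9 members measured in the control library, 4 were past 2-fold lower in Pi16-positive cells (Cxcl14, Apoe, Col4a1 and Smoc2), beside 1.75% of all genes, and 0 higher, with a median of -0.90. With classes from thinned counts Col4a1 had -1.34 and Apoe -1.39, Smoc2 was under 2-fold (-0.90) and Cxcl14 (-3.11) was under 100 CPM. Without cells that held at least 5 Apod UMIs, Apoe and Smoc2 were both at -0.51 in the control library. Of 8 measured in the case library, 2 were lower (Smoc2 and Apoe), beside 0.894%, and 0 higher, with a median of -0.51. With classes from thinned counts Smoc2 had -1.72 there, while Apoe was under 2-fold (-0.71). Apoe was also under 2-fold in the case library without the cells that held at least 5 Apod UMIs. Col15a1 itself, a basement membrane zone collagen, was at 339 CPM in Pi16-positive and 634 CPM in Pi16-zero control cells and at 282 and 339 CPM in case cells. Col4a1, of the basement membrane, was at 158 against 431 CPM and 156 against 286 CPM. Smoc2, a matricellular calcium-binding protein, was at 120 against 293 CPM and 127 against 463 CPM. In the Pi16-positive cells the levels of Col4a1 and Smoc2 in both libraries lay within counting error of each other.

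The low ratios of Apod came from a few Pi16-zero cells. Apod, a lipid-carrying lipocalin, stood at 41.5 CPM in Pi16-positive and 9456 CPM in Pi16-zero control cells and at 1.13 and 798 CPM in case cells. Cells with at least 5 Apod UMIs numbered 11 of 58 Pi16-zero control and 14 of 292 Pi16-zero case cells, and they held 99.96% and 99.6% of the Apod UMIs of their class. Every one of these 25 cells also carried Myoc, the secreted glycoprotein myocilin. Thbs4, a thrombospondin of tendon and nerve, had 218 UMIs in the Pi16-zero control cells, all of them in these 11 cells. In the Pi16-zero case cells the cells rich in Apod held 41.7% of the Thbs4 UMIs, which 58 cells carried, and 81.8% of the Myoc UMIs, which 32 cells carried. Among the Pi16-positive cells, 1 control and 0 case cells reached 5 Apod UMIs.

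Without the cells rich in Apod, the control comparison had 28 genes past 2-fold in place of 46, 15 higher and 13 lower and 21 of them among the 46, and the case comparison 24 in place of 27. The control ratios of Apoe, a lipid-transport protein, and of Tgfbi, a collagen-binding matrix protein, shrank from -2.27 to -0.51 and from -2.18 to -0.63. PCOLCE2 kept 1.59 and 2.30, Igfbp5 1.49 and 1.71, and Cadm3 1.11 and 1.67. These 3 genes stood above 2-fold without the cells, while Apoe and Tgfbi did not in the control library, nor Apoe in the case library (-0.50). The ratio of Itm2a, a type II membrane protein, went from -2.77 to -1.81 in the control and from -1.58 to -1.51 in the case library, past 2-fold in both.

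Other genes had their highest level in the Pi16-zero class of the injured arteries. Thbs2, a matricellular thrombospondin, was at 41.3 CPM in Pi16-positive and 71.6 CPM in Pi16-zero control cells but at 48.0 and 274 CPM in case cells. Col8a1, a short-chain collagen, was at 29.1 and 11.9 CPM in the control and 63.5 and 279 CPM in the case library. Cilp, a cartilage matrix protein that binds TGF-beta, was at 14.3 and 42.6 CPM and at 56.7 and 255 CPM. The Pi16-positive case cells stayed under 64 CPM. Col8a1 and Cilp fall outside the rule for named genes and were picked after their values were seen. The control level of Col8a1 in Pi16-zero cells rests on 7 UMIs.

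**Figure D4:**
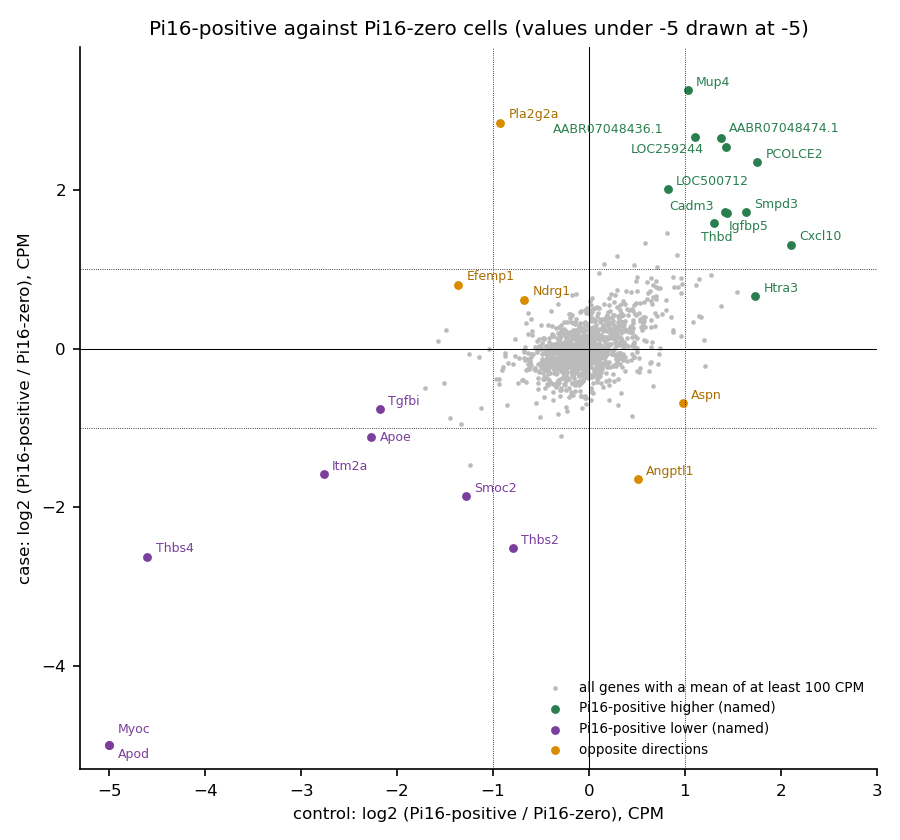
Log2 ratio of Pi16-positive to Pi16-zero CPM in the control (x axis) and case (y axis) libraries for all genes averaging 100 CPM or more over the 4 sums; green and purple points are the genes named as higher and lower, orange points 5 genes with opposite directions, and dotted lines mark 2-fold. PCOLCE2 lies at 1.75 and 2.35, and Thbs2 at -0.79 and -2.51. Apod and Myoc lie beyond -5 and are drawn at -5. Cxcl10 is green by its main ratios, though no direction is given for it.

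The broader matrix lists are read beside 3.35% of all genes past 2-fold in the control and 2.19% in the case library. Of 12 members measured in the control library from a list of fibrillar collagens and processing enzymes, 1 (PCOLCE2) was past 2-fold, and of 11 in the case library 1 (PCOLCE2 again). Of these, 9 of 12 and 11 of 11 were above 0, and the medians were 0.45 and 0.28, beside -0.07 and -0.05 over all genes. Adamts2, which removes the N-propeptide of procollagen, was at 399 against 239 CPM and 461 against 271 CPM. Lox, which cross-links collagen and elastin, was at 570 against 452 CPM and 566 against 525 CPM. Col1a1 and Col3a1 on this list, and Dcn and Lum on the next, belong to the rule. Small leucine-rich proteoglycans and versican had 0 of 8 past 2-fold in either library. Of the elastic fibre genes 1 of 9 was higher and 1 lower (Mfap5 and Efemp1) in the control and 0 of 8 in the case library. With classes from thinned counts both were under 2-fold (0.89 and -0.57). Matrix remodelling genes had 1 of 13 lower (Tgfbi) in the control and 1 of 12 lower (Col8a1) in the case library.

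Of 16 listed inflammatory mediators, 9 reached 100 CPM. Tnfaip6, a hyaluronan-binding protein induced by cytokines, was at 4148 and 2548 CPM in Pi16-positive and Pi16-zero control cells and at 2564 and 1615 CPM in case cells. Ptgs2, the inducible cyclooxygenase, was at 3646 and 2570 CPM and at 2945 and 1782 CPM. Il6 was at 736 and 686 CPM in the control and 549 and 283 CPM in the case library. Of 9 measured mediators, 0 passed 2-fold in the control and 1 (Cxcl1, 1.07) in the case library, where all 9 were above 0 with a median of 0.60 against -0.05 over all genes. These counts, and those of the next lists, stand beside 3.35% and 2.19% of all genes. Complement genes, with C1s at 1161 and 1023 CPM in the control and 1155 and 879 CPM in the case library, had 0 of 5 past 2-fold in either library. Of the 18 immediate early and stress genes measured, 0 passed 2-fold. Hspa1b, a heat shock chaperone, stood at 10180 CPM in Pi16-positive and 8498 CPM in Pi16-zero control cells and at 13374 and 13373 CPM in case cells. Its levels in both classes of the case library lay within counting error of each other.

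Other lists are read beside 1.6% of all genes higher and 1.75% lower in the control and 1.3% and 0.894% in the case library. Growth factor, Wnt and BMP genes had 1 of 14 higher in the control (Sfrp2) and 0 of 15 in the case library. Proteases and inhibitors had Htra3 higher and Serpine2 lower among 14 in the control and Timp2 higher among 12 in the case library. With classes from thinned counts all of these were under 2-fold (Htra3 0.98, Serpine2 -0.85 and Timp2 0.80). Serpine2, an inhibitor of thrombin and plasminogen activators, stood at 46.8 against 159 CPM in the control and 22.7 against 97.9 CPM in the case library. Interferon and antigen presentation genes had 1 of 5 higher in the control (Ifit2) and 0 of 4 in the case library. Of 5 and 6 measured mesenchymal transcription regulators, and of 2 proliferation genes (Pcna and Cdkn1a), 0 passed 2-fold in either library.

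The Pi16-positive cells of injured and normal arteries were compared by the ratio of the case to the control library. Of 1282 genes measured, 51 (3.98%) were past 2-fold, 17 higher (1.33%) and 34 lower (2.65%) in the case library. The same ratio in the Pi16-zero cells had 93 of 1327 (7.01%), 26 higher (1.96%) and 67 lower (5.05%), and 35 higher and 41 lower without the top cell of each gene. With scaling by TMM (trimmed mean of M-values) the Pi16-positive ratios shifted up by 0.12 in the median and 25 genes were higher and 14 lower, so the excess of lower genes depended on the scaling. Of the 51 genes, 36 were past 2-fold in the same direction in Pi16-zero cells, 33 in the VSMC gate, 31 in both and 13 in neither. The share of all genes past 2-fold in the VSMC gate was not counted. These overlaps are therefore a description and are not read as a result about the 51 genes.

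Single rows of ribosomal protein genes were named on both sides, and these genes were not counted as a group. Rps2 was at 2676 CPM in Pi16-positive control and 868 CPM in Pi16-positive case cells, and Rps20 at 1356 and 493 CPM. One of the annotated Rps27a genes (ENSRNOG00000034246) was at 655 and 1829 CPM and another was lower in the case library by 1.08 on the log2 scale. The VSMC gate gave -1.59 for Rps2 and -1.46 for Rps20, close to the -1.62 and -1.46 of the Pi16-positive cells. Ribosomal protein genes have many processed copies, so reads can be split between rows. The small nuclear RNA 7SK was higher by 1.93 (1.71 to 2.16) in Pi16-positive and by 2.32 in Pi16-zero cells, in the row with most UMIs. Pycard, the inflammasome adaptor ASC, was at 90.2 and 288 CPM in Pi16-positive cells, at 97.2 and 311 CPM in Pi16-zero cells and at 132 and 297 CPM in VSMCs. Mt1m, a metallothionein, was higher by 1.53 in Pi16-positive, 1.77 in Pi16-zero and 2.25 in VSMC sums. For 7SK, Pycard and Mt1m all 3 cell classes were higher in the case library.

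RT1-CE10, Rbp4, Wfdc1 and Cebpd were lower in the case library. RT1-CE10, a class I major histocompatibility gene, was at 327 and 111 CPM in Pi16-positive control and case cells and at 322 and 100.03 CPM in Pi16-zero cells. Class I copies are near-identical, so the level of a row is uncertain. Rbp4, the carrier of retinol, was at 212 and 76.3 CPM in Pi16-positive and at 136 and 46.2 CPM in Pi16-zero cells, and stayed under 0.5 CPM in VSMCs. Its ratios of -1.47 (-1.70 to -1.26) and -1.56 (-2.06 to -1.07) lay within counting error of each other. Wfdc1, a secreted protein with a protease inhibitor domain, was at 749 and 332 CPM in Pi16-positive cells, 408 and 288 CPM in Pi16-zero cells and 1461 and 666 CPM in VSMCs. Cebpd, a transcription factor of the acute phase and of fat cell formation, was at 573 and 269 CPM in Pi16-positive and 476 and 235 CPM in Pi16-zero cells.

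Another 13 genes were past 2-fold in Pi16-positive cells but in neither other class. Manf, a chaperone of the endoplasmic reticulum, had ratios of -1.10 in Pi16-positive, -0.72 in Pi16-zero and -0.93 in VSMC sums. Slc12a2, a sodium, potassium and chloride cotransporter, was at 73.4 and 150 CPM in Pi16-positive control and case cells, at 98.9 and 122 CPM in Pi16-zero cells and at 108 and 109 CPM in VSMCs. Ifit3, an interferon-induced gene, was at 149 and 71.8 CPM in Pi16-positive, 37.5 and 45.5 CPM in Pi16-zero cells, with -1.05, 0.28 and 0.09 as the log2 ratios in Pi16-positive, Pi16-zero and VSMC sums. Manf, Slc12a2 and Ifit3 were picked after their values were seen, and the differences between classes were not tested. With the TMM shift of 0.12, Manf and Ifit3 were under 2-fold in Pi16-positive cells, as were Tspo, Bri3, Rpl6, Rps10 and LOC100364457 of the 13 genes. Ifit3 was found in 9.43% of Pi16-positive control cells at equal depth, all of its thinned UMIs lay in the top 10% of cells, and 1 cell held 193 of its 788 UMIs. Without the UMIs of that cell, the control level would lie less than 2-fold above the case level.

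Between the libraries, 3.98% of all genes were past 2-fold in the Pi16-positive cells. Of 11 Pi16/Dpp4 genes, 12 matrix remodelling genes and 12 fibrillar collagen genes measured, 0 passed 2-fold, with medians of -0.01, -0.13 and -0.02 beside -0.10 over all genes. Pi16 itself is among these 11 genes, and Col1a1 and Col3a1 are among the 12 collagen genes. The rule used all 3, so their values describe the choice of cells. Col1a1, the main chain of collagen I and part of the rule, was at 21051 CPM in Pi16-positive control and 18722 CPM in Pi16-positive case cells. In Pi16-zero cells 1 matrix remodelling gene was higher (Col8a1) and 2 were lower (Timp1 and Tgfbi) among 13. The Pi16-zero control level of Tgfbi rested in large part on the cells rich in Apod. Without such cells, 68 of the 93 genes past 2-fold between the libraries in Pi16-zero cells were still past it. Across all lists 3 of 130 measured genes were past 2-fold in Pi16-positive cells (Cxcl2, Cebpd and Ifit3), beside 3.98% of all genes, and 18 of 122 in Pi16-zero cells, beside 7.01%. With the TMM shift of 0.12 Cebpd and Ifit3 were under 2-fold in Pi16-positive cells, and the Cxcl2 levels rested on 1 cell in each library.

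Cxcl2, a neutrophil chemokine, showed how a single cell can set a level. It stood at 63.8 CPM in Pi16-positive control and 149 CPM in Pi16-positive case cells, but 1 of 456 control cells held 325 of 338 UMIs and 1 of 442 case cells 373 of 395. Without the cells that carried macrophage or endothelial marker UMIs the log2 ratio was 0.15, and with F of at least 3% it was -4.11. No direction is therefore given for Cxcl2.

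**Figure D5:**
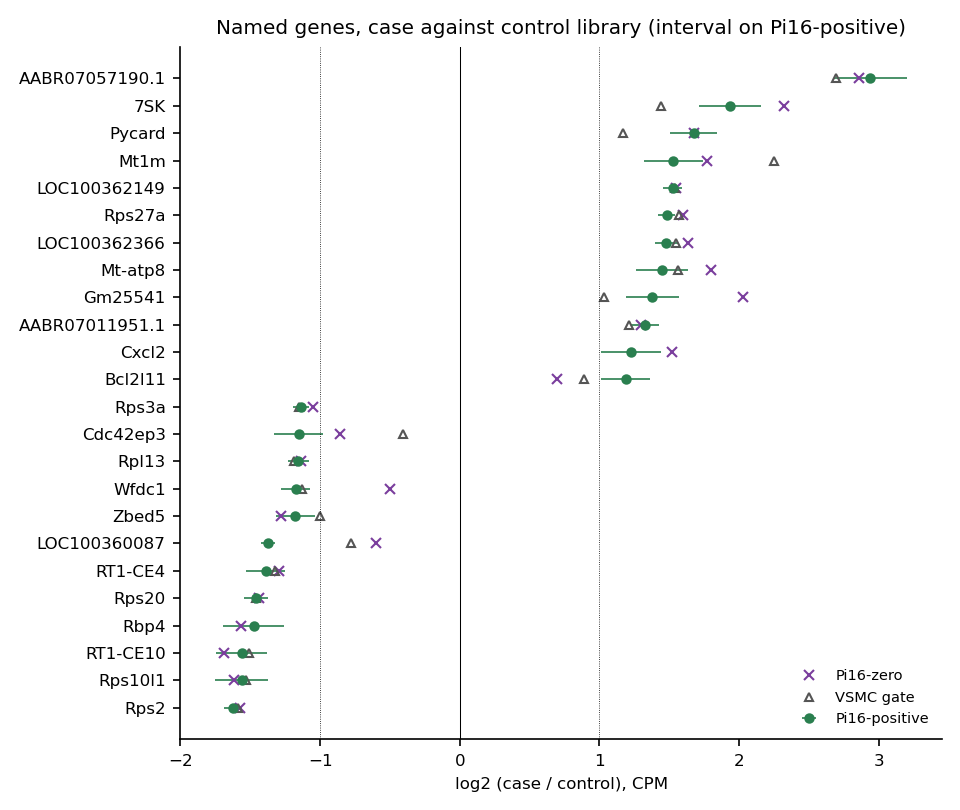
Log2 ratio of case to control CPM for the 24 genes named for this comparison; green points with exact 95% intervals are Pi16-positive cells, purple crosses Pi16-zero cells and grey triangles VSMCs (drawn where their mean level is at least 10 CPM). The symbols of Rps2 and Rps20 nearly coincide at about the same ratio in all 3 classes, while for Wfdc1 the Pi16-zero symbol lies apart from the other two.

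Spread among the Pi16-positive cells was compared at 2000 UMIs per cell by the variance over the mean, which is 1 for pure counting. Its median was 1.22 over 1345 genes in the control and 1.24 over 1205 genes in the case library. Igfbp5 stood at 35.8 in the control and 34.6 in the case library, and Hspa1b at 28.1 and 23.6. Igfbp5 was found in 56.1% of the control cells at this depth, and the 10% of cells with most of it held 61.6% of its UMIs. In the case library the share was 67.6% of cells and the top 10% held 52.6%. Igfbp5 was thus unevenly carried within the class.

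The chemokines Cxcl1 and Ccl2 were also among the 10 genes of highest spread in both libraries, below Igfbp5 and Hspa1b. Cxcl1, a neutrophil chemokine, had a variance over the mean of 26.4 and 22.3, and Ccl2, a monocyte chemokine, 21.5 and 16.3. Ccl2 was found in 41.2% of control and 41.0% of case cells, and the top 10% of cells held 68.9% and 64.9% of its UMIs. The remaining genes of highest spread were Col1a1, Col3a1, Cxcl10 and 2 rows of uncertain annotation, AC134224.3 and AY172581.24. Of the 10 most variable genes in each library, 9 were shared. The remaining one was Ifit3 in the control library, and in the case library Cxcl2, which had the highest value there (63.7) and lay almost wholly in 1 cell.

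Markers of other cell types were low but not absent. The 6 VSMC genes, part of the rule, came to 832 CPM in Pi16-positive control, 945 in Pi16-zero control, 795 in Pi16-positive case and 921 in Pi16-zero case cells, against 27722 and 23652 CPM in the VSMC gate. Macrophage markers (10 genes) came to 20.4, 5.12, 79.7 and 114 CPM in the same order, with Cd74 the most abundant in both case sums at 16.2 and 72.0 CPM. A single Pi16-zero case cell held 101 of the 103 Cd74 UMIs of its class. Endothelial markers came to 1.32, 8.53, 32.5 and 22.4 CPM, and T-cell markers to 0 UMIs in all 4 sums, with all 4 measured genes at 0. Macrophage and endothelial markers were thus higher in the case library in both classes. Cells with at least 5 macrophage marker UMIs numbered 1 among Pi16-positive control and 2 among Pi16-positive case cells, and those with at least 3 endothelial marker UMIs 0 and 7. Without all such cells of both classes the counts of genes past 2-fold were 46 in the control, 26 in the case library, 50 for case against control in Pi16-positive and 92 in Pi16-zero cells.

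Schwann, perineurial, mesothelial, pericyte and adipocyte markers were measured in the same way. Schwann markers came to 87.4 and 52.9 CPM in Pi16-positive and Pi16-zero control cells and 142 and 75.5 CPM in case cells, nearly all of it S100b, which other cells also carry. Perineurial markers came to 38.7 and 81.9 CPM in the control and 54.4 and 69.3 CPM in the case library, led by Slc2a1. Pericyte markers came to 275, 240, 296 and 241 CPM, led by Abcc9. Mesothelial markers stayed under 10 CPM in all 4 sums, and adipocyte markers at 11.9, 40.9, 21.2 and 42.7 CPM, led by Lpl or Fabp4. The part of such cells in the differences was not tested.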

How the data were processed

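Single-cell RNA of rat carotid arteries was measured on the 10x Genomics platform in 2 libraries. The deposited files hold whole-number UMI counts per gene and barcode, which the authors made with Cell Ranger (version 3.1.0 in the file header). The submitters' processing notes name the genome build Rnor 6.0 and Seurat. Both libraries lie in 1 merged matrix and were told apart by the barcode suffix, matched to the numbers of barcodes stated for each library. Whether merging down-sampled the reads is not given in the sources used here. The reference tables hold another build, so no coordinates are printed.

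UMIs were summed per class and library and scaled to 1000000 (CPM). A gene was measured where the mean of the 2 sums compared reached 100 CPM, and past 2-fold meant a log2 ratio of at least 1.0 either way. A class with 0 UMIs was set to 3 counts, which makes the ratio a bound. Equal depth means that each cell was thinned to 2000 UMIs with seed 1. With 1 library per group no test was run. Doublets were left in, since Scrublet (in scanpy 1.11.5) called too few to be informative. TMM factors came from edgeR 4.0.16 in R 4.3.3, and no edgeR test was run. Scripts used Python 3.11.15 and were tested on simulated data.

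The members, gene lists and comparisons were chosen with earlier results of these data known. Named genes were the 12 with the highest and 8 with the lowest mean log2 ratio of both libraries, among genes averaging 100 CPM or more over the 4 sums with 1 direction. For case against control they were the 12 highest and 12 lowest log2 ratios in Pi16-positive cells, among genes measured in that comparison. For spread they were the 10 highest in each library, and from each list members with at least 100 CPM. Of 284 different genes listed, 273 matched by symbol, 1 (PCOLCE2) without regard to case and 10 did not match. Alternatives changed the Pi16, F, V, UMI, mitochondrial and depth limits, the weighting of cells, the scaling, the CPM minimum and the comparison class, and 4 more were chosen after seeing the data.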

Additional observations from a re-analysis of the deposited data

Results flagged for a closer look

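For 5 genes the log2 ratio of Pi16-positive to Pi16-zero cells was at least 0.5 in one library and at most -0.5 in the other. The difference was not tested for any of them, since each library is a single sample.

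Pla2g2a, a secreted phospholipase A2, stood at 208 CPM in Pi16-positive and 396 CPM in Pi16-zero control cells and at 126 and 17.5 CPM in case cells. Its ratio was -0.92 in the control and 2.85 in the case library, a difference of 3.77, and 1 Pi16-zero control cell held 163 of the 232 UMIs of its class. With the top cell of each sum left out, the control ratio of Pla2g2a turned to 0.46 and the case ratio was 3.30, so its opposite direction rests on that cell. The other 4 genes kept opposite signs without their top cells. Efemp1, the elastic fibre protein fibulin-3, stood at 104 and 268 CPM in the control and 130 and 74.1 CPM in the case library, with ratios of -1.36 and 0.81 and a difference of 2.17. With classes from thinned counts the control ratio of Efemp1 was -0.57 (-0.81 to -0.34). Angptl1, a secreted angiopoietin-like protein, stood at 136 and 95.5 CPM and at 227 and 711 CPM, with ratios of 0.51 and -1.64 and a difference of -2.16. Aspn, the small leucine-rich protein asporin, stood at 198 and 101 CPM and at 259 and 417 CPM, with ratios of 0.98 and -0.69 and a difference of -1.66. Ndrg1, a gene induced by low oxygen and stress, stood at 180 and 287 CPM and at 293 and 191 CPM, with ratios of -0.67 and 0.62 and a difference of 1.29.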

How the results depend on the processing

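Of 19 alternatives, 4 of them chosen after seeing the data, 3 could not or did not change a single-gene ratio (both CPM minimums, and Scrublet, which removed no cell of either class). Under the other 16, the 68 single-gene ratios gave 1088 values, of which 934 stayed within the counting interval, 151 moved past it without reversing and 3 reversed. The reversed values were Cxcl2 in case against control at -4.11 with F of at least 3%, Thbs4 in the control library at 0.97 without cells rich in Apod (a bound, with 0 UMIs left in the Pi16-zero class), and Cxcl10 in the control library at -2.24 with classes from thinned counts. The cause was not tested, except that for Thbs4 the alternative removed every Pi16-zero control cell that carried it.

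The share of Pi16-positive cells in the gate was 89.2% in the control and 64.3% in the case library with 1 Pi16 UMI or more, 81.5% and 48.0% with 3 or more, and 89.9% and 64.7% with F of at least 3% (81.5% and 62.5% at equal depth). With at least 5000 UMIs the case library kept 268 cells, 64.1% of its gate and 57.4% at equal depth, and with 4000 to 20000 UMIs 61.7% and 56.8%. Classes from thinned counts gave 77.6% in the control library. The share was lower in the case than in the control library under all 11 alternatives that changed it, and at equal depth under all 7 that changed it.

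At a minimum of 50 CPM, genes past 2-fold numbered 74 of 2444 in the control and 51 of 2236 in the case library. For case against control they numbered 91 of 2289 in Pi16-positive cells, with 5 listed genes, and 174 of 2400 in Pi16-zero cells. At 200 CPM they numbered 22 of 702, 16 of 663, 29 of 673 and 57 of 700, with 7, 6 and 1 listed genes in the first 3. Without cells rich in Apod the control count was 28 of 1365. With classes from thinned counts it was 12 of 1361, with 8 listed genes. The case library then had 10 higher and 9 lower among 1224, with 6 listed genes. Against cells of 0 or 1 Pi16 UMI, the case library had 14 genes higher and 8 lower among 1224, with 6 listed genes. The number of listed genes measured is not given for these settings, so the listed counts are not read as results about the lists. TMM moved the median ratios by 0.13, 0.095, 0.12 and 0.15 and the share of higher among called genes from 47.8% to 64.6%, 59.3% to 64.5%, 33.3% to 64.1% and 27.96% to 57.8% in the same order. Without the top cell of each gene the share of higher genes was 72.3% in the control library. Totals without mitochondrial and ribosomal protein genes gave 15 higher and 19 lower for case against control in Pi16-positive cells.

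Scrublet called 12 of 1999 control (0.600%) and 3 of 4659 case cells (0.0644%), 0 of them Pi16-positive or Pi16-zero, so its result says nothing about doublets here. No paired analysis was possible because each group is 1 library, and no replicate could be left out for the same reason. The 58 Pi16-zero control cells limit the precision of the control ratios.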
